A study of Drosophila melanogaster with 3 samples.

Results

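Chromatin immunoprecipitation from Drosophila melanogaster embryos making GFP-tagged Mastermind gave 5326 reproducible peaks, and 1560 of them lay at promoters that serve a single protein-coding gene. A peak was kept when its summit, a position listed by the authors, lay within 500 bp of the nearest protein-coding transcription start site (TSS). Only the 6 main chromosome arms were used. In addition, no TSS of another protein-coding gene on the opposite strand lay within 1000 bp of that nearest TSS. In 66.5% of the kept peaks the summit was the middle of the interval, and 66.0% of the intervals were 396 bp wide. Whether such a summit is the base of highest signal is not stated. The 1560 summits were 29.3% of all reproducible summits (95% exact Clopper-Pearson interval 28.1 to 30.5, which covers counting error only) and 53.7% of the 2906 promoter summits. The other 1346 promoter summits lay at divergent promoters, where such an opposite TSS was present, and serve here as the class most alike.

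The study held 1 group, whole embryos of the strain mam-MiMIC-GFP aged 0 to 24 hours with both sexes pooled, in 3 samples, which carry biological replicate numbers in the labels. In this line an eGFP exon sits inside an intron of mam, so the fusion protein is made from the gene's own locus. Chromatin was sonicated (size range 200 to 800 bp), and an antibody to GFP was used for the precipitation. A possible control experiment named in the labels was not analysed here, and the design gives no contrast between conditions. The embryos span the whole of embryogenesis, so tissues and stages are averaged. Nothing in the labels gives batches, and no read numbers are given, which leaves the sequencing depth unknown.

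Mastermind (Mam) is the nuclear coactivator of the Notch pathway. When Notch is cleaved at the membrane, its intracellular domain enters the nucleus and pairs with Suppressor of Hairless, Su(H), which contacts DNA, and Mam joins that pair and brings in the acetyltransferase nejire (CBP) and the kinase module of Mediator. Drosophila promoters are often grouped by sequence. Those of broadly active genes tend to hold the DNA replication-related element (DRE), Motif 1 or Motif 7 and often lie head to head with a neighbour, whereas those of regulated genes tend to hold an initiator, a TATA box or GAGA repeats.

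The sequences at 6 of the 9 strongest of these summits are given first, because they show what highly enriched single-gene promoters hold. The windows of px, GstE13 and CG1888, also among the 9, are not shown. They were read from the RefSeq Release 6 assembly (the dm6 sequence), 60 bases to each side of the summit, and are written 5′ to 3′ on the strand of the nearest gene. Capitals mark a BEAF-32 site (CGATA on either strand), one of the motifs whose share differed between the promoter classes. The windows are CG14100 at chr3L:19590561-19590681, ph-p at chrX:2137274-2137394, larp at chr3R:28326540-28326660, CG31145 at chr3R:23669802-23669922, Atf3 at chrX:1275430-1275550 and amon at chr3R:26714315-26714435. All of these genes lie on the minus strand.
CG14100: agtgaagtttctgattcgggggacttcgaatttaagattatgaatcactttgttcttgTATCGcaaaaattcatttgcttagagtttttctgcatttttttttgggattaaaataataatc
ph-p: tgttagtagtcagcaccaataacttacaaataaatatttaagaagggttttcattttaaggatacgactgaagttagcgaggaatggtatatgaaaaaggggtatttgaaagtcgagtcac
larp: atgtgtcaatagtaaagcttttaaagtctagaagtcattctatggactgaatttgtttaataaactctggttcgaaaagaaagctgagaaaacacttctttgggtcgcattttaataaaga
CG31145: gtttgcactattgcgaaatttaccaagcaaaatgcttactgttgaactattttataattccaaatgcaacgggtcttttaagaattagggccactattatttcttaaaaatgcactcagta
Atf3: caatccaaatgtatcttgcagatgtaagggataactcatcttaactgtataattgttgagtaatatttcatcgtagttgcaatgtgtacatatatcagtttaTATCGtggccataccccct
amon: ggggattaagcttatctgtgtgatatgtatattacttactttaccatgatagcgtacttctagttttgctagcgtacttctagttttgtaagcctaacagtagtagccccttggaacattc

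A second set shows, on the strand of the gene, 1 strong example of each motif whose share differed between single-gene and divergent promoters, with the match in capitals. The regions are CG11151 with a DRE at chrX:13739448-13739487 (plus strand), jigr1 with Motif 7 at chr3R:25646950-25646989 (plus), Hpf1 with an E-box at chr3R:5791800-5791837 (plus), CG11857 with a GAGA repeat at chr3R:25258908-25258946 (plus), TRAM with a CA repeat at chrX:935408-935447 (plus) and CG17896 with an initiator at chrX:493475-493545 (minus). The BEAF-32 example is the CG14100 window above. In CG17896 the initiator begins 1 bp downstream of the annotated TSS, while the summit lies at position −490.
CG11151, DRE: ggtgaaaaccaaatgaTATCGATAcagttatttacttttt
jigr1, Motif 7: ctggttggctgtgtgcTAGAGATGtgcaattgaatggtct
Hpf1, E-box: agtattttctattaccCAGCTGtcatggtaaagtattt
CG11857, GAGA: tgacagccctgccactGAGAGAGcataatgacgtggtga
TRAM, CA repeat: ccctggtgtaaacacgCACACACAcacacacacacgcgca
CG17896, initiator: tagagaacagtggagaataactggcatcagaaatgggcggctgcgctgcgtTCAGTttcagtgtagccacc

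Because Mam is known to act through Su(H), the Su(H) sites of 3 members are shown as well, chosen after their values were seen. CG3009 (chrX:4667036-4667075, minus) and Nrx-1 (chr3R:22469169-22469208, plus) held the highest signal among members with a Su(H) site for which sequence is shown, and E(spl)mbeta-HLH (chr3R:26006292-26006331, minus) is a classical Notch target. The site in E(spl)mbeta-HLH is centred at position −288.5 from the TSS, near the summit at −242.
CG3009, Su(H) site: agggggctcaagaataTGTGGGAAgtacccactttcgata
Nrx-1, Su(H) site: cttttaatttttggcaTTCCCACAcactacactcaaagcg
E(spl)mbeta-HLH, Su(H) site: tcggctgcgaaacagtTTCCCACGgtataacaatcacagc

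The 1560 summits belonged to 1401 genes. Of these genes 1265 had 1 such summit, 120 had 2, 11 had 3 and 4 had 4, and Rtnl1 had 6. Among the 9521 protein-coding genes with at least 1 single-gene TSS, those 1401 were 14.7%, and the share was 14.7% ± 0.197 (SD, n = 3) when each replicate's own 5326 strongest peaks were used in place of the pooled list. The replicates gave 1621, 1546 and 1586 such summits, or 29.7% ± 0.705 (SD, n = 3) of their 5326 strongest peaks. The number of single-gene promoter summits thus varied little between replicates.

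The label was checked against the annotation. Of the 1560 summits, 1317 had no TSS of another protein-coding or non-coding gene within 1000 bp of the nearest TSS. Pseudogenes, transposable elements and other TSSs of the same gene were not counted there. A same-strand TSS of another protein-coding gene lay that close in 86 cases, and an opposite-strand non-coding TSS in 131. For 296 summits an opposite-strand protein-coding TSS lay at 1001 to 2000 bp, just beyond the limit. The summit itself fell inside the span of another protein-coding gene in 161 cases, so "single-gene" describes the TSS and not the surrounding sequence.

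Values on either side of the rule's limits are given as a description. The last summits inside the 500 bp window belonged to Ada2b, CG7029 and qtc, at 495, 496 and 500 bp, with signals of 278, 222 and 470. Just outside lay summits of zormin, CG31523 and CycD at 501, 502 and 503 bp with signals of 134, 541 and 179. The closest divergent cases were SMC1, CG32767 and hts, with an opposite TSS at 977, 991 and 999 bp and signals of 271, 174 and 182. RpS7, CG11961 and CG9992 had one at 1006, 1007 and 1012 bp and counted as single-gene, with signals of 140, 149 and 232. Signals on both sides of each limit overlapped.

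Genes with a single-gene TSS carried Mam-GFP summits at such a TSS less often than genes with divergent TSSs only did at theirs. A summit lay within 500 bp of such a TSS for 1448 of 9521 single-gene genes (15.2%, 95% interval 14.5 to 15.9) and for 1987 of 4424 divergent genes (44.9%, 43.4 to 46.4), with p = 1.13e-298 by the two-sided Fisher's exact test over genes. In the replicates' own peaks the shares were 15.2% ± 0.213 and 44.2% ± 2.79 (SD, n = 3). A summit near only a divergent TSS of a single-gene gene was not counted. A summit between divergent TSSs counted for both genes. Counted for its nearest gene only, a choice made after seeing the data, the shares were 14.7% and 24.8% (p = 1.01e-45, Fisher's exact test). Genes are not replicates, and these p-values measure the spread over genes.

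Carrier genes were longer and more often had several promoters. The 1401 genes with a single-gene promoter summit had a median length of 5058 bp, and 52.4% had more than 1 TSS. The 8120 eligible genes without such a summit had a median of 2060 bp, and 25.4% had more than 1 TSS. At 2810 bp and 44.2%, the 1301 genes nearest to a divergent promoter summit lay between these. A gene with more TSSs offers more places for a summit, and the part of that in these values was not tested. Genes known only by a CG number made up 29.0% of the carriers and 47.1% of all eligible genes.

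**Figure D1:**
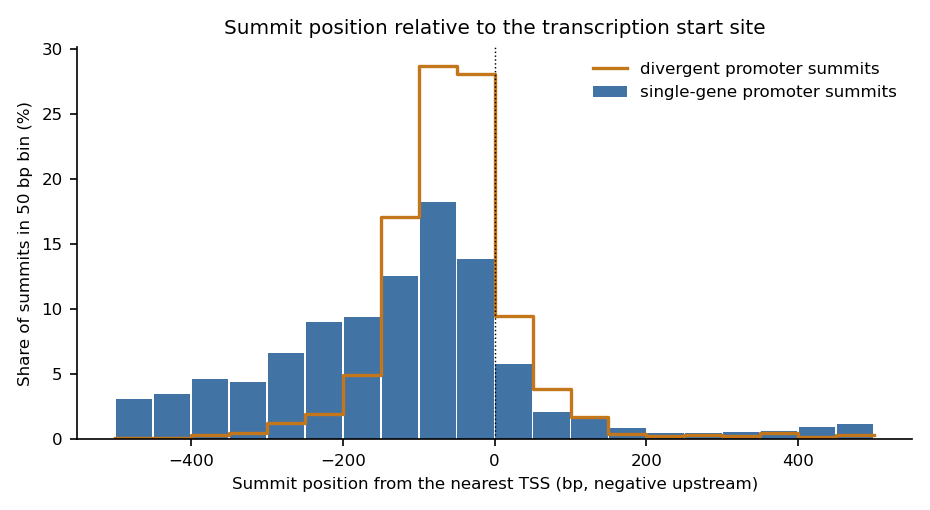
Share of summits (%) in 50 bp bins of distance to the nearest TSS (bp, negative upstream), for the 1560 single-gene promoter summits (bars) and the 1346 divergent promoter summits (line). Both classes peak in the 100 bp upstream of the TSS, and the single-gene summits reach farther upstream, with a median of −112 bp against −58 bp.

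Mam-GFP summits at single-gene promoters lay upstream of the TSS. The median position was −112 bp, the middle 50% lay between −232 and −40 bp, and only 14.6% (95% interval 12.8 to 16.4) lay downstream. At divergent promoters 16.5% lay downstream, a difference that did not pass the threshold (Fisher's exact test, adjusted p = 0.150 over 4 features). The replicate medians were −114, −113 and −112.5 bp at single-gene promoters and −52, −60 and −57 bp at divergent ones, a gap wider in every replicate than the spread within a class. Within 100 bp of the TSS lay 40.0% of single-gene and 70.2% of divergent summits (38.7% ± 0.396 and 70.2% ± 1.17 in the replicates, SD, n = 3). Between head-to-head TSSs a summit cannot lie farther from its nearest TSS than midway, so the class definition fixes part of this difference and of that in the medians, and both are given as a description. In the plot of summit positions the single-gene class has a long upstream shoulder, with 9.04% of summits in the bin from −250 to −200 bp against 1.93% of divergent ones.

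Most summits lay outside genes. By the annotation, 839 of the 1560 (53.8%) were outside any gene, 401 (25.7%) were in an intron of the nearest gene, 231 (14.8%) in one of its exons and 89 (5.71%) inside another gene only. An intronic summit upstream of its nearest TSS arises where a gene has a longer isoform that starts farther out. Of the 874 summits in genes with several TSSs, 380 (43.5%) were nearest to the outermost TSS.

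The X chromosome held a larger share of the single-gene class. On the X lay 311 of 1560 summits (19.9%, 95% interval 18.0 to 22.0) against 203 of 1346 at divergent promoters (15.1%, adjusted p = 0.00128, Fisher's exact test), and the replicate shares were 19.8% ± 0.916 and 14.8% ± 0.603 (SD, n = 3). Of the TSSs themselves 17.3% of the single-gene and 16.002% of the divergent ones are on the X. Among eligible genes, 17.4% of those on the X and 14.2% of those on other arms carried a member summit. With a promoter window of 200 bp the difference between classes was 3.16 percentage points and no longer passed (exact adjusted p = 0.0607).

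Signal, the authors' peak height, ran from 110 to 5297 among the 1560 peaks, with a median of 204. It was 228 at divergent promoters and 195 over all 5326 peaks. In the replicates' own lists the medians at single-gene promoters were 67.3, 66.6 and 71.6, and at divergent promoters 75.7, 76.7 and 81.6 for replicates 1, 2 and 3. The single-gene median was thus lower in 3 of 3 replicates, at 0.878 ± 0.0107 (SD, n = 3) of the divergent one. An exact sign-flip test over the replicates gave p = 0.25 (two-sided), which is the smallest that 3 replicates allow. Values of the pooled list and of the replicates are on different scales and are not compared with each other.

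Replicate support was high for strong peaks and low for weak ones. Of the 1560 peaks, 1169 (74.9%) overlapped the 5326 strongest peaks of all 3 replicates, 298 those of a pair, 91 those of 1 and 2 those of none. All of the 312 strongest (signal 383 to 5297) had support from all 3, against 13.8% of the 312 weakest (110 to 137). At divergent promoters the share with full support was 78.5% (adjusted p = 0.0333, Fisher's exact test). That difference changed with the list. Replicate 1 supported 87.6% of single-gene and 84.99% of divergent peaks, replicate 2 supported 90.3% and 93.8%, and replicate 3 supported 90.9% and 95.7%. Without replicate 2 the difference was −1.74 points (adjusted p = 0.237) and without replicate 3 it was −1.004 (adjusted p = 0.514), while in the strongest 2663 peaks it was 0.9997 in the other direction (99.9% at single-gene promoters, exact adjusted p = 0.0140). Pooled peaks come from the same replicates, so support is partly built in.

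Across the members the signals of the replicates ranked alike. Spearman's rho was 0.803 between replicates 1 and 2, 0.810 between 1 and 3 and 0.879 between 2 and 3, over 1556 to 1558 peaks of the same libraries. The summit called in each replicate varied by a median of 37 bp over the 3 replicates, and by 126 bp at the 90th percentile. Of the members, 110 had another member summit within 400 bp. Such neighbours can share 1 replicate peak and are then not separate measurements.

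**Figure D2:**
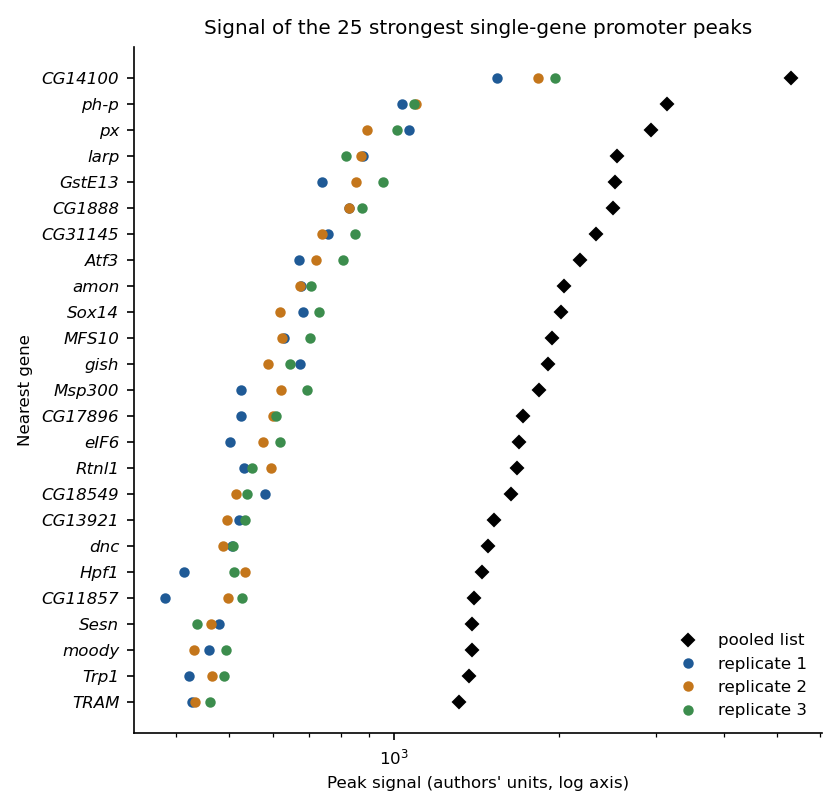
Signal (authors' units, log axis) of the 25 strongest single-gene promoter peaks by nearest gene, in the pooled list (diamonds) and in replicates 1, 2 and 3 (circles). The replicates lie close together for each gene and CG14100 stands highest in all 3 replicates, at 1540, 1827 and 1967.

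The strongest single-gene promoter peak, which was also the strongest of all 5326, lay 97 bp upstream of CG14100, a gene without a given name. Its signal was 5297 in the pooled list and 1540, 1827 and 1967 in replicates 1, 2 and 3, where it ranked 3, 1 and 1. Next came ph-p, which encodes the Polycomb complex subunit Polyhomeotic proximal, with 3154 in the pooled list and 1031, 1097 and 1086 in the replicates. Its summit lay in an intron at position −479, and the gene has a near-identical neighbour, so reads there can be hard to place. The treatment of reads that map to several places is not stated in the labels or deposited notes. The peak of px, a regulator of wing vein patterning, reached 2941, with 1064, 890 and 1011 in the replicates. These 3 peaks were the strongest of their class in the pooled list, and their replicate values spread by less than the gap between CG14100 and the other members.

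Several of the strongest peaks belonged to genes with regulatory roles. At larp, which encodes an RNA-binding protein, signal was 877, 870 and 816 in replicates 1, 2 and 3. Atf3, a stress-responsive transcription factor, had 671, 719 and 807. For Sox14, a transcription factor of the ecdysone response, the values were 681, 618 and 729. The replicate ranges of these genes overlapped in part, so their order below larp is not resolved. Sesn, a brake on TOR signalling, had 479, 463 and 436, and gish, a casein kinase, had 672, 587 and 645.

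Others encode enzymes, transport proteins and structural proteins. GstE13, a glutathione S-transferase, had 739, 853 and 955 and was the only member of the 25 with its summit downstream of the TSS, at 62 bp. The prohormone convertase gene amon had 676, 672 and 706. Msp300, a giant nesprin that links nuclei to the cytoskeleton in muscle, had 525, 622 and 693. In all of the 25 strongest peaks the 3 replicates placed the peak among their 91 strongest, and 24 of the 25 summits were upstream. Further genes among the 25 were CG1888, CG31145, MFS10, CG17896, eIF6, Rtnl1, CG18549, CG13921, dnc, Hpf1, CG11857, moody, Trp1 and TRAM, with pooled signals from 1314 (TRAM) to 2509 (CG1888). The 25 peaks held 10.8% of the summed signal of the 1560.

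Genes with the most summits carried them at several TSSs, and in part as neighbouring summits at 1 TSS. Rtnl1, which encodes an endoplasmic reticulum-shaping reticulon, had 6 summits with pooled signals from 141 to 1676, all upstream of their nearest TSS. At the strongest, replicates gave 532, 595 and 550, and at the next, 322, 364 and 331. Summits of Rtnl1 with pooled signals of 284 and 141 matched the same replicate peak, as did a pair at larp, a pair at dnc and both summits of nej and of E(spl)m3-HLH. Ptpmeg2, a protein tyrosine phosphatase gene, had 4 summits at separate TSSs with signals of 738, 839, 395 and 296, 3 of them about 200 bp upstream, at −197, −203 and −213. The cyclic AMP phosphodiesterase gene dnc had 4 summits, the strongest at 1481, and Moe, which encodes moesin, had 4 between 143 and 297. Repeated summits in 1 gene ranged from near the lowest listed signal to the highest ranks.

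Genes of the Notch pathway carried single-gene promoter summits at 8 of 22 eligible genes (36.4%, 95% interval 17.2 to 59.3), beside 14.7% of all eligible genes. The replicates' own lists gave 18.2%, 45.5% and 36.4%, so the share of this small list depended on the replicate. Relative to all eligible genes it was 2.47 times as high, and 1.54 and 1.55 times without replicates 2 and 3. The median signal of its carriers was 163, below the 211 of all carriers. The carriers were gro, numb, nej, N, Cdk8, Nedd4, neur and bib.

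The highest signal in the list belonged to gro, which encodes the corepressor Groucho that acts with the E(spl) repressors. Its stronger summit had a pooled signal of 934 and 271, 345 and 322 in replicates 1, 2 and 3, and a second summit had 408 and 137, 138 and 135. At numb, an inhibitor of Notch in asymmetric division, the pooled value was 465, with 118, 161 and 198. For nej, the CBP acetyltransferase recruited by Mam, the stronger of 2 summits had 345 in the pooled list and 124, 90.1 and 133. These 3 genes had support from all 3 replicates.

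The receptor gene N had a pooled signal of 177 at position −192, with 62.2, 64.5 and 49.8 in the replicates, below the median of the class. Lower still were Cdk8, the Mediator kinase, at 149, and Nedd4, a ubiquitin ligase, at 124. The ligase gene neur, whose product acts on Delta, had 118, and bib, which encodes a membrane channel protein, had 114 with support from only 1 replicate. Eligible genes without such a summit included Delta and Ser, which encode the ligands, the Mediator kinase module genes kto and skd, the Su(H) antagonist H, the corepressor gene CtBP, and mam itself. At mam the 1 summit in a promoter window lay at a divergent TSS, as did that of Su(H).

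Classical Notch targets were near the background. Summits lay at 4 of 22 eligible target genes (18.2%, 95% interval 5.19 to 40.3, and 13.6%, 13.6% and 9.09% in the replicates) beside 14.7% of all eligible genes. E(spl)m3-HLH, one of the bHLH repressors of the Enhancer of split complex, had 2 summits, the stronger at 442 in the pooled list, with 132, 152 and 158. E(spl)mbeta-HLH had 152 in the pooled list, with 82.7, 34.8 and 33.1, and E(spl)m7-HLH had 149, with 87.4, 43.4 and 21.0. In both, replicate 1 was well above the other replicates, and support came from 1 and 2 replicates. The share of targets relative to all eligible genes was 1.24, and it was below 1 without any 1 replicate, at 0.731, 0.384 and 0.774 without replicates 1, 2 and 3. The EGFR inhibitor gene aos had 114, with 36.1, 35.9 and 39.9. No member summit was found at E(spl)m5-HLH, E(spl)m8-HLH, E(spl)mgamma-HLH, Hey, dpn, ct or sim.

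**Figure D3:**
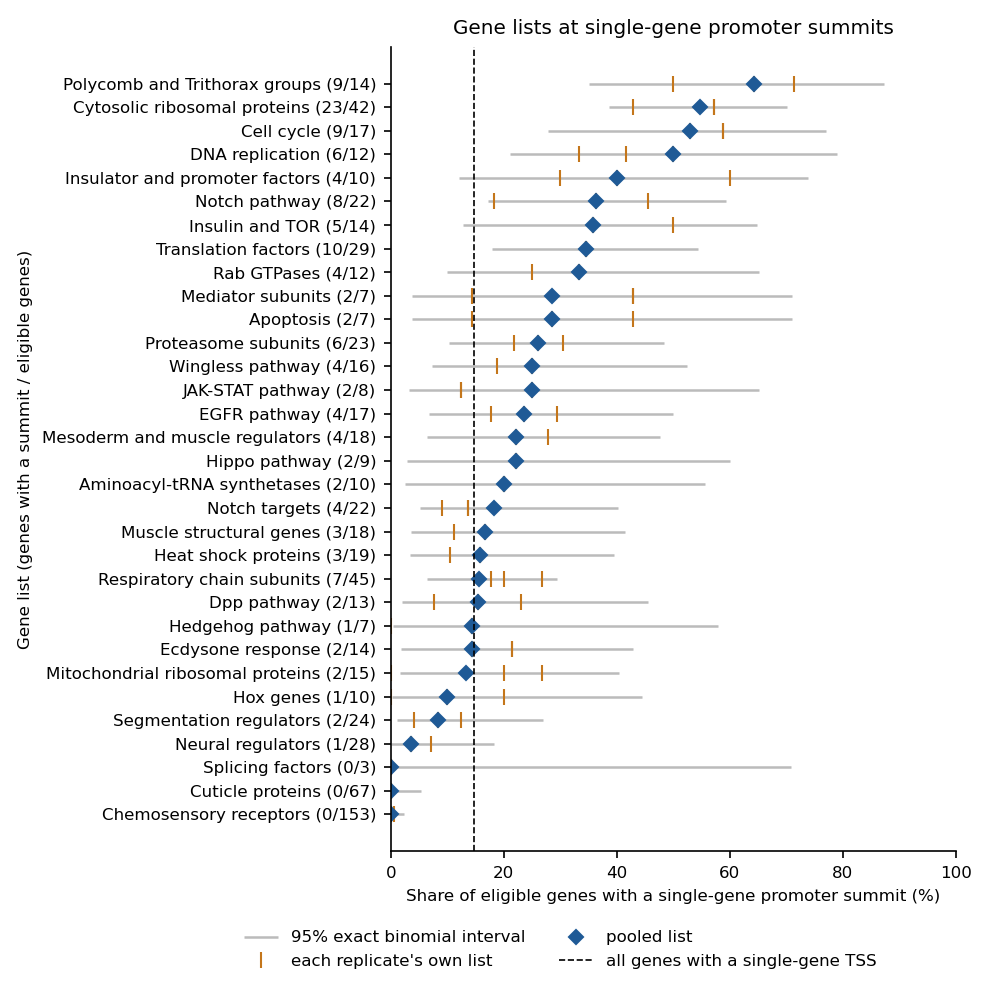
Share (%) of eligible genes with a single-gene promoter summit in 32 gene lists, in the pooled list (diamonds, with 95% exact binomial intervals) and in each replicate's own list (ticks), beside the share of all eligible genes (dashed line, 14.7%). Polycomb and Trithorax genes, cytosolic ribosomal protein genes and cell cycle genes stand highest, and cuticle and chemosensory receptor genes are at 0 in the pooled list.

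Genes of growth and proliferation stood above the background. Cytosolic ribosomal protein genes carried a summit in 23 of 42 cases (54.8%, 95% interval 38.7 to 70.2), and 52.4% ± 8.25 (SD, n = 3) in the replicates. The strongest was RpL23A at 912, followed by RpS29 at 573, RpL30 at 440 and RpS4 at 394. The summits of these named genes, picked by signal from the 23, lay between −100 and 11 bp, beside the class median of −112. Translation factors carried summits at 10 of 29 genes (34.5%), led by eIF6 at 1691, a factor of ribosome assembly, and including eEF1gamma at 470, eEF1alpha1 at 462 and eEF2 at 287. Cell cycle genes did so at 9 of 17 (52.9%, and 56.9% ± 3.396 in the replicates), with Dp, the partner of E2F, at 1038, the checkpoint kinase BubR1 at 321, polo at 290 and fzr at 211. DNA replication genes did so at 6 of 12 (50%), with chif at 374, PolA1 at 258, Orc1 at 230 and Orc3 at 140. The median signal of all carriers was 211. For carriers it was 276 in the ribosomal protein list, 258 in translation factors, 185 in DNA replication and 151 in the cell cycle list.

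Chromatin and promoter factor genes were also above it. Polycomb and Trithorax group genes had a summit at 9 of 14 (64.3%, 95% interval 35.1 to 87.2, and 61.9% ± 10.9 in the replicates, SD, n = 3). After ph-p came Trl, which encodes the GAGA factor, at 822, kis at 214 and esc, a subunit of the H3K27 methyltransferase complex, at 179. Insulator and promoter factors did so at 4 of 10 (40.0%), namely Taf4 at 553, BEAF-32 at 451, pita at 224 and CTCF at 137, the last with 72.2, 26.1 and 40.4 in replicates 1, 2 and 3. Mediator subunits did so at 2 of 7 (28.6%), MED4 at 553 and MED21 at 134. The Mediator share was 1.94 times that of all eligible genes, and 1.21 and 1.22 times without replicates 2 and 3. The 95% intervals of the insulator (12.2 to 73.8) and Mediator (3.67 to 71.0) lists reach below 14.7%. The Polycomb and Trithorax share was 4.37 times that of all eligible genes and 2.87 times without replicate 1. The median signal of carriers was 162 in the Polycomb and Trithorax list, below the 211 of all carriers. It was 338 in the insulator and 344 in the Mediator list. These are small lists, and their intervals are wide.

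Several signalling pathways, the proteasome and Rab GTPases also had shares above the background. Insulin and TOR genes carried a summit at 5 of 14 (35.7%), with the PI3-kinase adaptor Pi3K21B at 844, the receptor InR at 348 and foxo at 176. Wingless pathway genes did so at 4 of 16 (25%), with the kinase sgg at 871, nkd at 334, Wnt6 at 164 and arm at 122, and without replicate 3 that share went from 1.699 to 1.06 times that of all eligible genes. For the EGFR pathway it was 4 of 17 (23.5%), with the ligand spi at 988, csw at 226, aop at 159 and aos as given above. Proteasome genes reached 6 of 23 (26.1%), with Rpn12 at 239, Rpn1 at 166, Rpn10 at 165 and Prosalpha5 at 158, and Rab GTPase genes 4 of 12 (33.3%), with Rab5 at 233, Rab1 at 208, Rab35 at 162 and Rab11 at 158. All of these shares exceeded 14.7%, but the 95% intervals of the Wingless, EGFR, proteasome, insulin and Rab lists all reach below it.

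Lists near the background were respiratory chain subunits (7 of 45, 15.6%, led by ND-B17 at 322, with ND-B22 at 220, ND-13B at 202 and SdhD at 186), heat shock proteins (3 of 19, 15.8%, with Hsp27 at 882, Hsp26 at 413 and Hsp60A at 156) and muscle structural genes (3 of 18, 16.7%, with Msp300, sls at 314 and Tm1 at 145). Mitochondrial ribosomal proteins (2 of 15, 13.3%) had mRpL9 at 169 and mRpL10 at 133. Dpp pathway genes (2 of 13, 15.4%) had shn at 177 and wit at 136, and the ecdysone response list (2 of 14, 14.3%) had Eip75B at 586 and EcR at 152. Hedgehog pathway genes (1 of 7, 14.3%) had ptc at 127. Mesoderm and muscle regulators were somewhat higher (4 of 18, 22.2%), with Poxm at 228, tin at 197, how at 185 and htl at 142. Short lists with 2 carriers each were JAK-STAT (of 8, Su(var)2-10 at 128 and ken at 123), Hippo (of 9, Mer at 494 and kibra at 382), apoptosis (of 7, hid at 362 and Diap1 at 117) and aminoacyl-tRNA synthetases (of 10, PheRS-m at 166 and AlaRS at 140). Shares that rest on 1 or 2 genes are uncertain, and several moved with single replicates. The Hippo and aminoacyl-tRNA synthetase shares did not move between the replicates' own lists, at 22.2% and 20% in each. Relative to all eligible genes, JAK-STAT went from 1.699 to 1.01, 1.06 and 0 without replicates 1, 2 and 3, and the Dpp pathway from 1.05 to 0.619, 1.301 and 0.655. Mitochondrial ribosomal proteins went from 0.906 to 0 without replicate 2 or 3, and the Hedgehog pathway from 0.971 to 0 without replicate 1 or 3.

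Segmentation, Hox, neural, cuticle and chemosensory receptor genes had shares below it. Segmentation regulators carried a summit at 2 of 24 genes (8.33%), bcd at 309 and oc at 111, and Hox genes at 1 of 10 (10%), Antp at 116. Relative to all eligible genes, Hox genes went from 0.680 to 0 without replicate 1 or 2, and segmentation regulators from 0.566 to 0.335, 0.352 and 0.355 without replicates 1, 2 and 3. Neural regulators did so at 1 of 28 (3.57%). The 95% intervals of the segmentation (1.03 to 27.0), Hox (0.253 to 44.5) and neural (0.0904 to 18.3) lists all include 14.7%, and the Hox share was 20% in replicate 1. The neural gene was elav, which encodes a neuronal RNA-binding protein, with a pooled signal of 996 and 345, 277 and 377 in the replicates, and its summit lay inside the neighbouring gene arg. None of 67 eligible cuticle protein genes and none of 153 chemosensory receptor genes had a summit, which gives upper 95% limits of 5.36% and 2.38%, and none of 3 splicing factor genes did. In replicate 1 the chemosensory share was 0.654%. Together 133 of the 1401 carrier genes were in any of the 32 lists, so the lists describe a small part of the class.

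**Figure D4:**
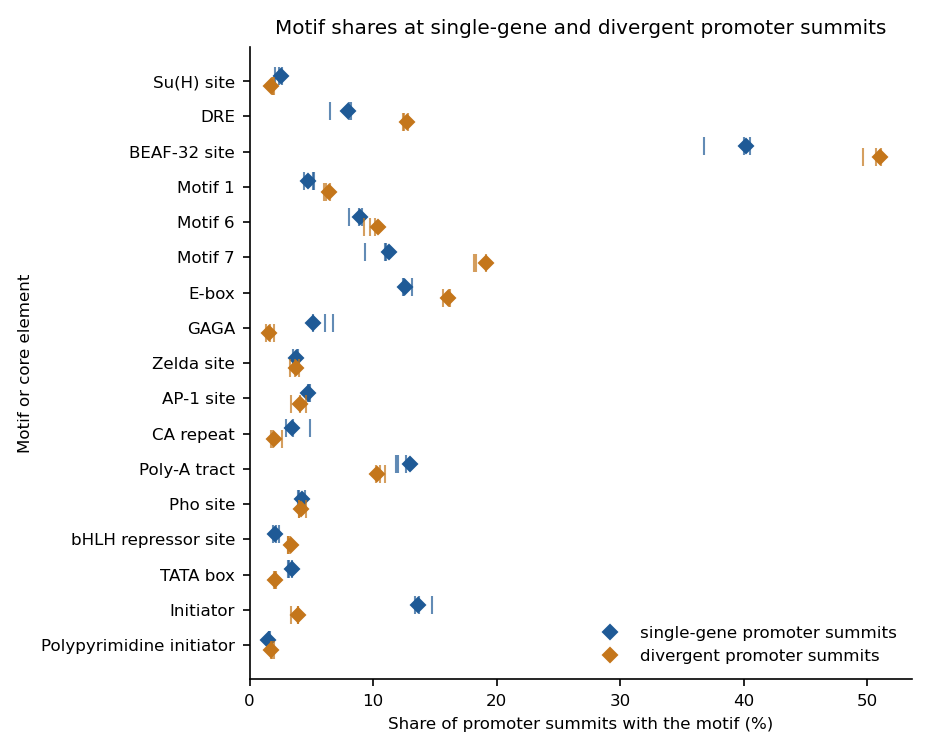
Share (%) of single-gene (blue) and divergent (orange) promoter summits with each motif within 100 bp of the summit, or with the core element at its place at the nearest TSS, in the pooled list (diamonds) and in the replicates (ticks). DRE, BEAF-32 sites and Motif 7 are lower and GAGA and the initiator are higher at single-gene promoters in every replicate.

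Sequence around the summits differed between the promoter classes. The motifs were chosen with earlier results of these data known, so the p-values describe these peaks only. Of 14 motifs (either strand, at most 100 bp from the summit) and 3 core elements at their positions at the TSS, 7 differed (41.2% of the 17 tested, Fisher's exact test, adjusted over the 17), 3 higher and 4 lower at single-gene promoters. Motifs of broadly active promoters were less frequent near single-gene summits. The search was centred on the summit, and 40.0% of single-gene and 70.2% of divergent summits lay within 100 bp of the TSS. DRE and Motif 7 were centred near the TSS, at −47.5 and −28 bp in the members, and the part of this in the shares was not tested. The DRE (TATCGATA, bound by DREF) was near 7.95% of single-gene and 12.8% of divergent summits (exact adjusted p = 7.01e-05, with 7.56% ± 0.946 and 12.5% ± 0.208 in the replicates, SD, n = 3). BEAF-32 sites (CGATA, the core also held in every DRE) were near 40.2% and 51.0% (exact adjusted p = 3.04e-08, with 39.1% ± 2.03 and 50.5% ± 0.747). Motif 7 (CAGCNCTA or CATCNCTA) was near 11.3% and 19.2% (exact adjusted p = 2.69e-08, with 10.5% ± 0.946 and 18.6% ± 0.512). With a promoter window of 200 bp the difference in DRE was −1.89 points and no longer passed (exact adjusted p = 0.442). There BEAF-32 sites went from −10.8 to −5.53 points and Motif 7 from −7.89 to −5.51. Both still passed by Fisher's exact test (adjusted p = 0.0303 and 0.00340).

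The initiator was the most different element. TCAGT or TCATT starting between −5 and 1 bp of the TSS was present at 13.6% of single-gene members (95% interval 11.9 to 15.4) and 3.94% of divergent ones (exact adjusted p = 2.02e-19), and at 14.0% ± 0.702 and 3.73% ± 0.337 in the replicates (SD, n = 3). GAGA repeats (GAGAGAG) were near 5.13% and 1.56% (exact adjusted p = 3.13e-07, with 5.98% ± 0.815 and 1.66% ± 0.299). Windows of the same length held GAGA at 6.32% of all TSSs and at 7.48% of single-gene TSSs without a summit. The 5.13% was thus higher than at divergent summits but not than in these TSS windows. The calls for the E-box (CAGCTG, 12.6% and 16.05%, exact adjusted p = 0.0217) and the CA repeat (CACACACA, 3.46% and 2.01%, adjusted p = 0.0430) were lost under several alternatives. Without replicate 1 or 2 the E-box had an exact adjusted p of 0.0752 or 0.126, and without replicate 2 or 3 the CA repeat had 0.126 or 0.0846. Average GC content was 38.2% in the member windows and 37.2% in the divergent ones.

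The other 10 did not pass. Su(H) sites (CGTGGGAA, CGTGAGAA, TGTGGGAA or TGTGAGAA) were near 40 of 1560 single-gene summits (2.56%, 95% interval 1.84 to 3.48) and 1.71% of divergent ones (exact adjusted p = 0.179), and in 2.11% of windows of the same length at all 19607 TSSs. Members with a Su(H) site included Reg-5 at 1297, CG3009 at 1260, Nrx-1 at 604 and CG2865 at 590, named after their values were seen. The other motifs that did not pass were Motif 1 (GGTCACAC, 4.74% and 6.46%, exact adjusted p = 0.0784), Motif 6 (GTATATTT or GTATTTTT, 8.91% and 10.4%), Zelda sites (CAGGTA, 3.78% and 3.71%), AP-1 sites (TGANTCA, 4.74% and 4.09%), poly-A tracts (AAAAAAAA, 13.0% and 10.3%), Pho sites (GCCATNTT, 4.23% and 4.16%) and bHLH repressor sites (CACGTG, 2.05% and 3.34%). The TATA box (TATAAA starting between −45 and −20 bp, 3.397% and 2.08%, exact adjusted p = 0.0607) and the polypyrimidine initiator (CTTT and then 2 pyrimidines, starting between −5 and 3 bp, 1.47% and 1.71%) complete the set.

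**Figure D5:**
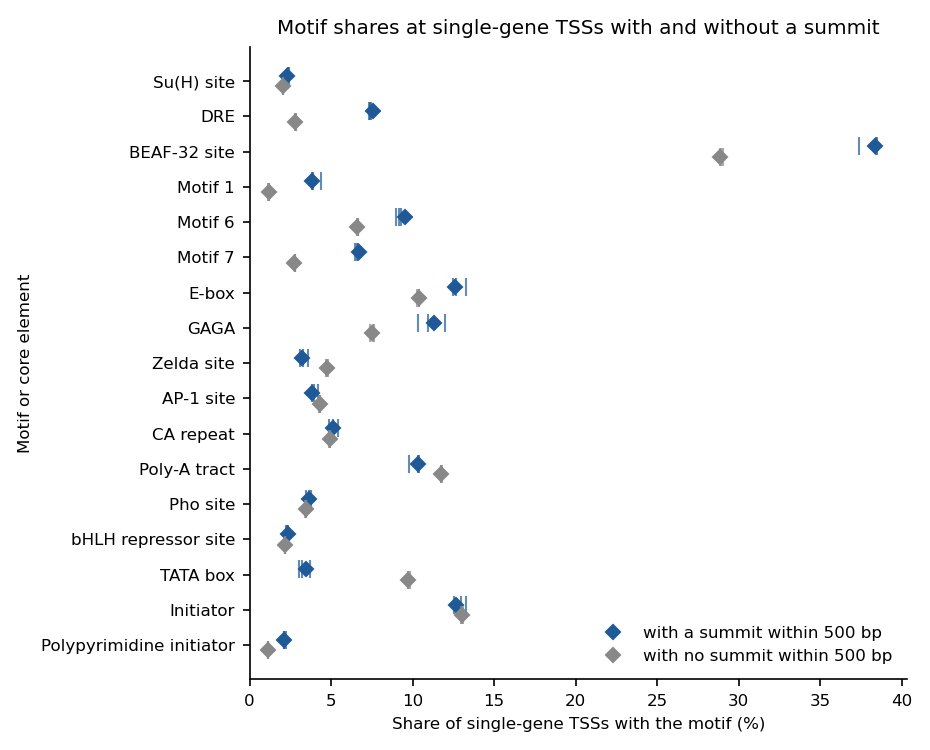
Share (%) of single-gene TSSs with each motif within 100 bp of the position 112 bp upstream, or with the core element at its place, for the 1827 TSSs with a summit within 500 bp (blue) and the 11412 without (grey), in the pooled list (diamonds) and in the replicates (ticks). DRE, BEAF-32 sites, Motif 1 and Motif 7 are higher and the TATA box is lower at TSSs with a summit, while the initiator is close in both.

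Among single-gene TSSs alone, those with a summit differed in sequence from those without. The same windows, centred 112 bp upstream of the TSS, were scanned at 1827 TSSs with a summit within 500 bp and at 11412 without, and the shares are given without a test. DRE was in 7.55% of the former and 2.80% of the latter, BEAF-32 sites in 38.4% and 28.9%, Motif 7 in 6.73% and 2.75% and Motif 1 in 3.83% and 1.21%. With each replicate's own peaks the DRE share at TSSs with a summit was 7.42%, 7.31% and 7.37%. The replicates' lists share most peaks, so this spread does not measure how a motif share varies over TSSs. GAGA was in 11.3% and 7.48%, and the replicates gave 11.996%, 10.4% and 10.9% at TSSs with a summit. The TATA box went the other way, at 3.45% and 9.72%, with 3.71%, 3.21% and 3.01% in the replicates. Initiators were in 12.6% and 13.0%, and the replicates gave 13.3%, 12.5% and 13.0%, so the high initiator share of the members was also that of single-gene TSSs without a summit. Su(H) sites were in 2.30% and 2.06%. Over the 19607 TSSs of all classes, windows of the same length held DRE in 5.57%, BEAF-32 sites in 35.7%, Motif 7 in 4.67%, GAGA in 6.32%, the E-box in 11.4%, the CA repeat in 4.08%, Motif 1 in 2.87%, Motif 6 in 8.70%, the TATA box in 7.68% and the initiator in 10.6%. Zelda, AP-1, Pho and bHLH repressor sites were in 4.37%, 4.22%, 3.55% and 2.198%, poly-A tracts in 11.6% and the polypyrimidine initiator in 1.36%. TSSs of 1 gene share sequence where they lie close together.

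Motifs lay at different distances from the summit. For 66.5% of the members that summit was the middle of its interval, so these are distances to listed positions. BEAF-32 sites were closest among the motifs with over 100 carriers, with a median of 35 bp and 41.5% within 25 bp of the summit. For DRE the median was 40.5 bp and 31.5% were that close. Motif 7, the E-box, poly-A tracts and Motif 6 lay at 44.5, 47, 49.5 and 50.5 bp, with 25%, 30.1%, 21.7% and 24.5% that close. The search reached only 100 bp to each side, which bounds these distances, and distances of randomly placed sites were not computed. GAGA repeats lay farther away, at 57.5 bp with 15% within 25 bp, and CA repeats at 65.5 bp with 13.0%. Relative to the TSS, Motif 7 and Motif 1 were centred at −28 and −23 bp, near the start site, while GAGA was at −108.5 and Motif 6 at −131.5.

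The 312 strongest members had the lowest shares of DRE, BEAF-32 sites, Motif 1 and Motif 7, while the weaker ones showed no steady order. From the strongest 312 to the weakest 312, in steps of 312, the share with a DRE was 3.21%, 10.3%, 6.41%, 10.3% and 9.62%. For Motif 7 it was 5.13%, 11.2%, 15.1%, 13.8% and 11.2%, highest in the middle. BEAF-32 sites were at 30.1%, 42.6%, 40.7%, 42.6% and 44.9%, and Motif 1 at 1.603%, 4.49%, 4.17%, 5.45% and 8.01%. All of these were lowest in the strongest 312. Initiators ranged from 11.9% to 15.7%. The median position was −160 bp in the strongest 312 and between −115 and −88 bp in the rest. GAGA repeats and Pho sites had their highest shares in the strongest 312. In the same steps GAGA was at 6.73%, 3.85%, 5.13%, 6.41% and 3.53%, with no steady order. Pho sites were at 6.41%, 4.17%, 3.53%, 4.49% and 2.56%. Summits farther from the TSS had less chance to hold motifs that sit near it, and the part of this was not tested. These shares are given as a description.

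Grouped by their elements, 66.5% of the members had neither an initiator nor DRE, Motif 1 or Motif 7, and the rest held unlike promoter types. An initiator without DRE, Motif 1 or Motif 7 was present at 195 summits, and 1 or more of those 3 motifs without an initiator at 311. Both were present at 17 and neither at 1037. Summits of the initiator type lay at a median of −206 bp, with 15.9% within 100 bp of the TSS, and belonged to genes with a median length of 10279 bp. Those of the DRE, Motif 1 or Motif 7 type lay at −61 bp, with 72.3% within 100 bp, at genes of 3928 bp. The 1037 with neither lay between these, at −126 bp, with 34.9% within 100 bp, at genes of 5080 bp. Median signal was 207 for the initiator type, 178 for the DRE, Motif 1 or Motif 7 type and 213 for those with neither. The motifs were searched around the summit and the initiator at the TSS, so summits far from the TSS had less chance to hold Motif 1 or Motif 7, which sit near it, and the part of this in the positions was not tested.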

How the data were processed

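ChIP-seq peak lists of 3 replicates and of their pool were used. The authors deposited them in narrowPeak form on dm6, per the file headers and deposited notes, with a signal value whose scaling is not stated and a −log10 q-value that reaches at most 4.00. Per the deposited notes, the thresholded list comes from all 3 samples and 1 control by the irreproducible discovery rate, a procedure that keeps peaks ranked alike in replicates. No aligner, peak caller or threshold is named in those notes or in the labels. The replicate lists held 30000, 24267 and 24306 peaks with background calls, so the 5326 strongest of each were used. Lists on dm3 were not used. Read depth is unknown, and intervals (95%, Clopper-Pearson) cover counting error only.

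Summits were annotated with Ensembl 115 (BDGP6.54), which holds 13945 protein-coding genes and 19607 TSSs on the main arms as used here, in Python 3.11.15 with pandas 2.3.3, numpy 2.4.6 and scipy 1.17.1. Sequence came from the RefSeq Release 6 assembly. A replicate supported a peak by an overlap of at least 1 bp. Fisher's exact tests were two-sided with Benjamini-Hochberg adjustment within 4 features and within 17 motifs, at 0.05. The p-values reflect how features vary over peaks or genes, which are not replicates. The annotation, class and motif steps were tested on simulated data.

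The members, gene lists and motifs were chosen with earlier results of these data known. Gene lists are therefore given as counts beside all eligible genes, with no test. Motifs were tested, but for the same reason their p-values are descriptive and give no independent support. Named genes are those nearest to the 25 strongest members, all carriers of both Notch lists, up to 4 of the strongest in every other list and the 5 genes with the most summits. One gene that this rule names is not reported here. Alternatives were the strongest 2663 peaks, promoter windows of 200 and 1000 bp, separations of 500 and 2000 bp, head-to-head TSSs only, another overlap, motif windows of 50 and 200 bp and leaving out each replicate. Using 1 summit per gene and class, and counting a summit for its nearest gene only, were added after seeing the data.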

Additional observations from a re-analysis of the deposited data

How the results depend on the processing

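Of 100 alternative values of the main results, 82 kept their direction and side of the threshold or stayed within the stated range, 9 moved, 5 lost and 2 gained their call and 2 changed sign, and the cause was not tested. The number of members was 826 in the strongest 2663 peaks, 1008 with a 200 bp window and 1243 to 1312 without 1 replicate. The log2 ratio of median signal, −0.16, was −0.0426 in those peaks, −0.18 at 200 bp and −0.18 at 1000 bp, −0.26 at a separation of 500 bp and −0.17 to −0.10 without 1 replicate.

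The downstream share differed by 0.311 points at a 200 bp window, in the other direction, and by −3.61 and −3.26 points with separations of 500 and 2000 bp, where it passed. Full support differed by 0.9997 points in those peaks, −2.34 with 0.5 of the shorter peak as overlap, −3.32 with 1 summit per gene and −6.31 to −1.004 without 1 replicate. The X difference was 3.16 points at 200 bp. Core elements called were 2, in place of 1, at a 1000 bp window and at a separation of 500 bp. Motif calls numbered 6 at the summit, and 4 to 5 without 1 replicate.

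Full support (above) changed sign after passing, and passed again. The other sign changes, listed here, were of differences that passed no threshold. In the strongest 2663 peaks, Su(H) sites gave −0.0589 and the polypyrimidine initiator 0.446 points. At 200 bp Motif 1 gave 0.127, Zelda sites −0.666 and the polypyrimidine initiator 0.0113, and at a separation of 500 bp the last 2 gave −0.246 and 0.331. Zelda sites gave −0.0625 and −0.683 with motif windows of 50 and 200 bp and −0.197 with 1 summit per gene. Pho sites gave −0.172 at a 1000 bp window, −0.289 at a separation of 2000 bp, −0.0344 for head-to-head TSSs and −1.07 with a 200 bp motif window. Of 32 gene lists, 17 exceeded the background by over 1.5 times, and 14 to 17 did so without 1 replicate. No paired analysis was possible because the study holds 1 group of samples, although promoter classes were compared within each replicate. Read depth is unknown, so what it limits cannot be given.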
